A study of Mus musculus with 2 samples.

Results

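Intermediate cells of the stria vascularis, the pigmented cell type of the epithelium that charges the endolymph, were described here in single-cell RNA sequencing of dissociated mouse cochlea. Each library was counted in UMIs, molecular tags that mark separate captured mRNA molecules. A barcode was kept where it held at least 300 detected genes and no more than 20% of its UMIs came from mitochondrial genes, and kept barcodes are called cells below. Cells with 1 or more UMIs of at least 3 of 9 markers (Dct, Gpnmb, Tyr, Kcnj13, Mlana, Slc45a2, Hpse, Met and Pax3) were taken as intermediate cells, so the members were chosen by their UMIs of those genes. They numbered 4346 of 42625 kept cells, with 1734 of 19953 in the noise-only library and 2612 of 22672 in the AAV-Isl1 library.

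Both groups came from wild-type CBA/CaJ mice aged 4 to 6 weeks, and all ears were exposed to noise of 105 dB between 1 and 20 kHz over 2 h. Treated ears had received an adeno-associated virus (AAV) carrying Isl1, a LIM homeodomain transcription factor gene, ahead of the noise, while the opposite ears of those mice got no virus and served as the noise-only group. Tissue labelled as sensory epithelium was taken 2 days later from 5 mice per group and captured as 1 library per group, so the spread between animals could not be measured and no test between the groups was possible. Paired values are given for the noise-only library first and the AAV-Isl1 library second. Intervals below are exact 95% intervals that cover counting error only. The promoter and serotype of the vector are not given in the sources used here, and ears without noise were not analysed here.

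Intermediate cells are melanocytes that lie between the marginal cells, which face the endolymph, and the basal cells of the stria. Their inwardly rectifying potassium channel KCNJ10 sets the potassium gradient behind the endocochlear potential, while KCNQ1 and KCNE1 in the marginal cells pass potassium into the endolymph. In the skin, related melanocytes make pigment through tyrosinase and the enzymes DCT and TYRP1 under the transcription factor MITF, which binds E-box letters in the promoters of such genes.

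The libraries held 38330528 UMIs in 21068 barcodes (noise only) and 40268563 UMIs in 24209 barcodes (AAV-Isl1), far above the about 1600 cells that the labels say were loaded. They shared 145 barcode sequences, and 1 barcode was an intermediate cell in both. Intermediate cells had a median of 2123.5 UMIs and 1047 genes in the noise-only library and 1610.5 UMIs and 863.5 genes in the AAV-Isl1 library, against medians of 1035 and 1054 UMIs in the other kept cells. Against the labelled sensory epithelium, at least 3 of 8 hair cell markers were seen in only 80 and 164 of the other kept cells, while 8958 and 9160 held at least 3 of 9 Schwann and satellite glia markers. The mitochondrial share was alike, with medians of 7.07% and 7.23%. Because markers are seen more readily in deeper cells, shares of cells are also given after each cell was thinned to 1000 UMIs.

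The promoters of 3 pigment cell genes with high levels in the intermediate cells, and of Tyrp1, which was near 0 in them, are shown to set the E-box letters beside the measured levels. Sequences are RefSeq windows on GRCm38.p6, from 250 bases before to 50 bases after the transcript start, written 5′ to 3′ on the gene's strand. Capitals mark CATGTG or its reverse complement CACATG, letters that MITF can bind. Dct (dopachrome tautomerase) lies at chr14:118052197-118052496 on the minus strand with matches that begin 232 and 150 bases before the start. Tyr (tyrosinase) lies at chr7:87493463-87493762 on the minus strand with a match 21 bases before it. Tspan10 (a tetraspanin) lies at chr11:120442381-120442680 on the plus strand with a match 21 bases before the start, and Tyrp1 at chr4:80833963-80834262 on the plus strand with a match 46 bases before it.
Dct: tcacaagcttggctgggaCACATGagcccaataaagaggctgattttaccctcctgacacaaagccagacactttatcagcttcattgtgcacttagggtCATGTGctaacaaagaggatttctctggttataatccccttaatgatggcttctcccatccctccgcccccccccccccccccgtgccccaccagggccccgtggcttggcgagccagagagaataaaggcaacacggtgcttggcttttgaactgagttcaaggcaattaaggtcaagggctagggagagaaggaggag
Tyr: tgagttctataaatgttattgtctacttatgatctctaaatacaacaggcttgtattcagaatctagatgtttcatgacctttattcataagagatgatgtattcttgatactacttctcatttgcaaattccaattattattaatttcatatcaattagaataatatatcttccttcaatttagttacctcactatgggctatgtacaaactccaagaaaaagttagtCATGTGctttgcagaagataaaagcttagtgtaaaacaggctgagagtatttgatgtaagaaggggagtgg
Tspan10: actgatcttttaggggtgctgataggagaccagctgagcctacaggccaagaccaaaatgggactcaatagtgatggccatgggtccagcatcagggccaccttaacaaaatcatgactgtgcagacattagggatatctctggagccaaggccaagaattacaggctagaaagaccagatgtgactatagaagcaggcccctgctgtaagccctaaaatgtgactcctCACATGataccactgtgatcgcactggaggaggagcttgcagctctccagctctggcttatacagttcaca
Tyrp1: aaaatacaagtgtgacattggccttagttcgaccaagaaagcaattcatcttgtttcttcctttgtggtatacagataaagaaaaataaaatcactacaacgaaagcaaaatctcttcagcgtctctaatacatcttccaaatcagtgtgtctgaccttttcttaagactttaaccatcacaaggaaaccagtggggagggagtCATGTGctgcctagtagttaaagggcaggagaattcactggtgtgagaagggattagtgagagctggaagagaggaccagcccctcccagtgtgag

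These letters, on either strand, stood in 4650 of 32851 promoter windows of that length (14.2%). Of the 9 markers of the rule, 6 had a window in the table, and 3 of those (Dct, Kcnj13 and Tyr) held the letters. Among the 20 genes outside the rule with the highest fold in intermediate cells, 13 had windows and 2 of these genes, Tspan10 and Cited1, had a match. The related palindrome CACGTG stood in 7.15% of all windows and, among the rule's markers, in that of Met. A match is a description of the letters in a window and is not a binding site.

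The 9 markers that chose the cells are given as a description. Values are CPM, UMIs of a gene per 1000000 UMIs summed over the cells of a library. They come from the 3′ ends of transcripts and are not divided by gene length, so levels are compared between cells and not between genes. Dct was at 17187 CPM (17063 to 17312) in the noise-only intermediate cells and 15726 CPM (15616 to 15836) in the AAV-Isl1 ones, against 140 and 206 CPM in the other kept cells. Gpnmb, a melanosomal and lysosomal glycoprotein gene, had 2703 and 2309 CPM, and Hpse, which encodes the heparan sulfate cleaving heparanase, 1735 and 1481 CPM. Mlana, a melanosome protein gene, stood at 1301 and 977 CPM, Slc45a2, a melanosomal transporter gene, at 973 and 870 CPM, and Tyr at 713 and 636 CPM. Kcnj13 had 567 and 444 CPM, Met, the hepatocyte growth factor receptor gene, 606 and 552 CPM, and Pax3, a transcription factor gene of the melanocyte lineage, 181 and 151 CPM. Every marker had its lower value in the AAV-Isl1 intermediate cells.

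The number of markers per cell was not evenly spread. In the noise-only library 295 cells held 3 markers, 126 held 5 and 418 held 8. In the AAV-Isl1 library 446 cells held 3 markers, 248 held 4, 570 held 7 and 153 held 9. Both libraries thus had a dip at 4 or 5 markers between a low and a high range. Cells just inside the threshold, with 3 markers, had Dct at 2406 and 2726 CPM and Gpnmb at 396 and 453 CPM. Just outside it, the 763 and 1112 cells with 2 markers had Dct at 1141 and 1418 CPM and Gpnmb at 144 and 203 CPM.

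Genes that the rule did not use followed the marker number. Gsta4, a glutathione S-transferase gene, was at 2425 and 1872 CPM in cells with 3 markers and at 11631 and 10344 CPM in cells with 9. Kcnj10 was at 276 and 316 CPM with 3 markers and at 1523 and 1720 CPM with 9. Markers of Schwann and satellite glia went the other way, with a summed 4589 and 4651 CPM in cells with 3 markers and 1498 and 1281 CPM in cells with 9. Cells with 3 to 5 markers (587 and 995) and those with 6 or more (1147 and 1617) are therefore given apart where it matters, a split chosen after the dip was seen.

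**Figure D1:**
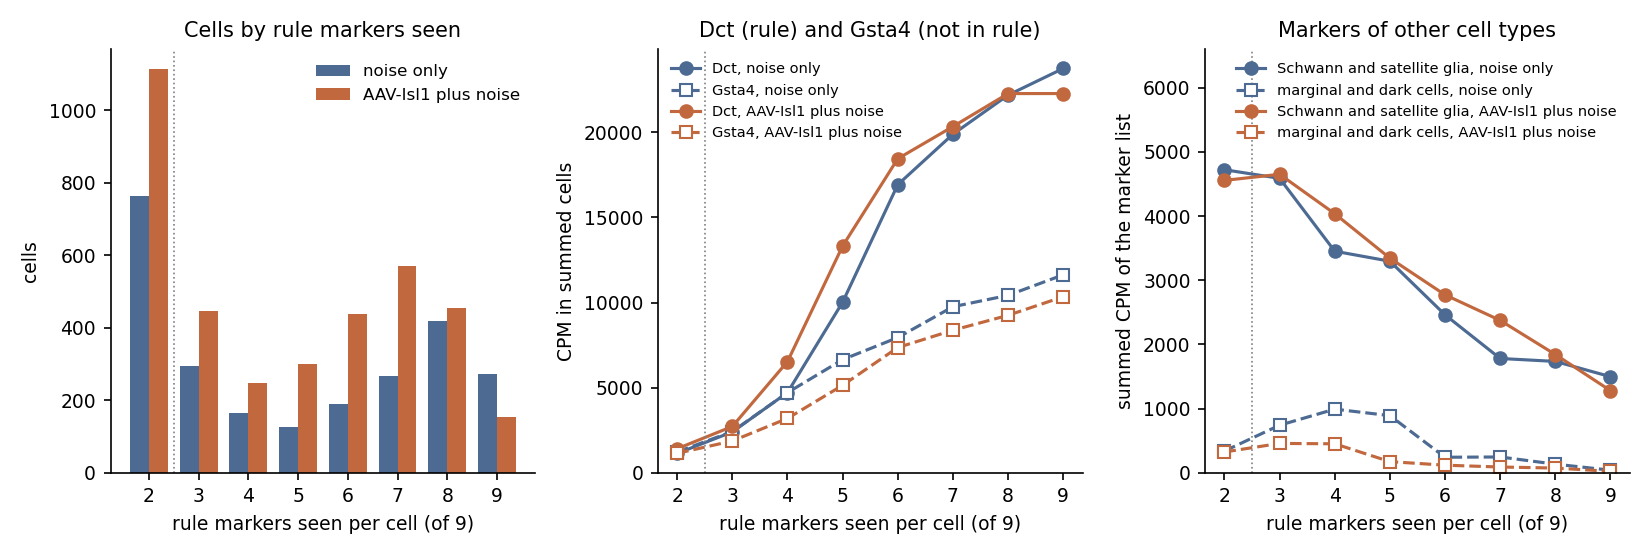
Cells by the number of rule markers seen (left), CPM of Dct and Gsta4 in the summed cells of each number (middle) and summed CPM of 2 other cell types' marker lists (right). The dotted line is the threshold of the rule. Dct reaches 23751 CPM in noise-only cells with 9 markers, where the summed Schwann and satellite glia markers are lowest at 1498 CPM.

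Single intermediate cells with at least 1000 UMIs spread widely in the leading genes. Dct took a median of 199 UMIs per 10000 in the noise-only library (quartiles 83.2 and 282) and 188 per 10000 in the AAV-Isl1 library (77.1 and 260). In cells with 6 or more markers the Dct medians were 237 and 223 per 10000, and in cells with 3 to 5 markers 26.5 and 32.7. Gsta4 had medians of 85.1 and 70.4 per 10000 over all intermediate cells of that depth. The quartile ranges of the libraries overlapped for both genes.

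Intermediate cells made up 8.69% (8.30 to 9.09) of the noise-only cells and 11.5% (11.1 to 11.9) of the AAV-Isl1 cells, a ratio of 1.33 (1.25 to 1.41). Cells with 3 to 5 markers took 2.94% and 4.39%, a ratio of 1.49 (1.35 to 1.65), and cells with 6 or more took 5.75% and 7.13%, a ratio of 1.24 (1.15 to 1.34). After thinning to 1000 UMIs, which left out 9084 and 10026 shallower cells, the shares were 11.2% and 13.6%. Among thinned cells those with 6 or more markers took 6.92% (6.45 to 7.41) and 7.18% (6.74 to 7.64), a ratio of 1.04 (0.94 to 1.14), whereas those with 3 to 5 markers took 4.24% and 6.46%, a ratio of 1.52 (1.36 to 1.71). Thinning both left out the shallower cells and lowered the depth of the others, and the parts of these steps were not separated. The group and the library cannot be told apart with 1 library per group.

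Cells with markers of other types lay among them. Of the intermediate cells, 733 (42.3%) in the noise-only and 1246 (47.7%) in the AAV-Isl1 library also held at least 3 markers of another cell type. Schwann and satellite glia accounted for most of these, with 462 and 837 cells, and all 9 markers of that list were seen. Their summed level in intermediate cells was 2339 and 2872 CPM, against 10754 and 8620 CPM in the 8958 and 9160 cells named by those markers. The cochlear epithelium list, which holds Gjb2, summed to 2271 and 2171 CPM in intermediate cells, above the 1734 and 1538 CPM of other kept cells. At least 3 of its genes were held by 86 and 124 intermediate cells. Cells counted as holding other markers can therefore include some counted by genes of their own. Scrublet doublet calls covered 205 (11.8%) and 279 (10.7%) of the intermediate cells. Leaving out the cells with other markers gave a ratio of shares of 1.20, and leaving out the called doublets gave 1.32.

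Outside the rule, the 20 genes with the highest fold in intermediate cells included several known from pigment cells and 3 glutathione S-transferase genes. Tspan10 stood at 149 and 118 CPM in the intermediate cells and at 0.828 and 0.956 CPM in the other kept cells, a 180-fold and 123-fold difference. Gpr143, the melanosomal receptor gene linked to ocular albinism, had 73.7 and 50.8 CPM against 0.368 and 0.687. Ednrb, the endothelin receptor gene needed by migrating melanoblasts, had 557 and 507 CPM, 21.1-fold and 21.4-fold above the other cells. The melanosome transport genes Rab38 and Mlph lay 17.3-fold and 20.0-fold, and 19.7-fold and 18.2-fold, above the others. Cited1, a transcriptional coregulator gene, was at 356 and 306 CPM against 11.6 and 15.2.

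The other genes in this list of 20 had varied roles. The glutathione S-transferase genes Gsta4, Gsta2 and Gsta1 had 8685 and 6678, 1118 and 914, and 119 and 107 CPM, with folds between 19.4 and 55.8 over the other cells. The secreted peptide precursor genes Agt (angiotensinogen) and Adm (adrenomedullin) stood at 171 and 144, and 350 and 277 CPM. Cyp26a1, which breaks down retinoic acid, was at 49.9 and 32.0 CPM and Kcnn4, a calcium-activated potassium channel gene, at 167 and 127 CPM. Spon1, Scrg1, Lhfpl1, Pla2g2e, Car8, Gucy2f and Snhg7os, a noncoding transcript opposite Snhg7, completed the list, at folds between 17.9 and 282. Of 6068 genes with at least 200 UMIs, 149 (2.46%) were at least 4-fold higher in intermediate cells in both libraries.

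**Figure D2:**
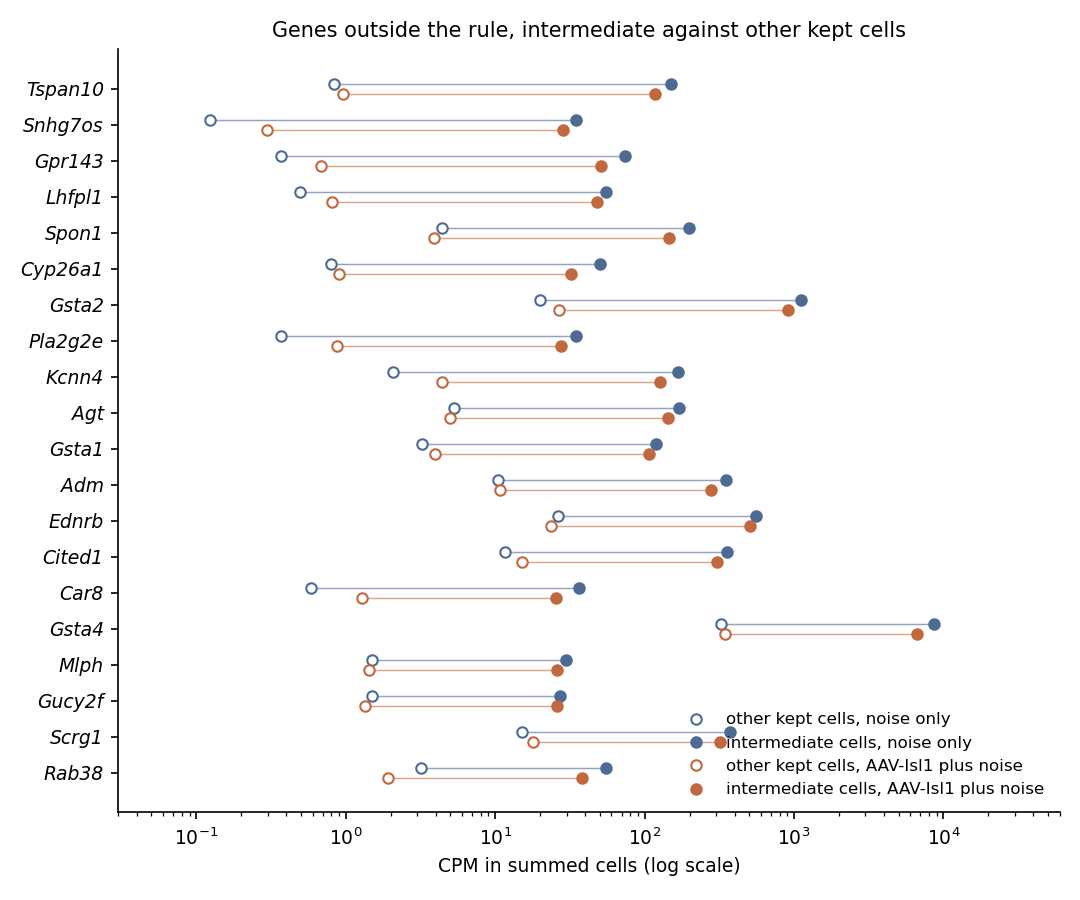
CPM of the 20 genes outside the rule with the highest fold, in intermediate cells (filled) and in all other kept cells (open), for both libraries on a log axis. Tspan10 has 149 and 118 CPM in intermediate cells against 0.828 and 0.956 CPM in the others.

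Among melanocyte lineage regulators, Mitf and Sox10 were present. Mitf had 245 and 213 CPM, 6.25-fold and 5.63-fold over the other cells, and Sox10, which glia share with melanocytes, 235 and 207 CPM, 2.34-fold and 2.34-fold over them. Kit, the receptor tyrosine kinase of skin melanocytes, gave only 31 and 43 UMIs, and at 1000 UMIs per cell 0.70% and 0.85% of intermediate cells held it (unthinned, 1.27% and 1.42%). Erythroid cells, which served as a background for free RNA at median depths of 2350 and 1881.5 UMIs, held Kit in 0.91% and 0.66%, but erythroid precursors use this gene themselves. Schwann and satellite glia held it in 1.01% and 2.04%, above the intermediate cells in both libraries. Mc1r, the melanocortin receptor gene, had 0 UMIs in either library, which allows up to 3 counts or 0.706 CPM in the noise-only intermediate cells.

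Some genes of pigment synthesis outside the rule gave few or no UMIs. Tyrp1 gave 4 UMIs in 1734 cells and 7 UMIs in 2612 cells. Oca2, whose product regulates melanosome pH, gave 0 UMIs in both. Pmel, the fibril protein of the melanosome, had 24 and 32 UMIs, and after thinning 0.49% and 0.60% of intermediate cells held it (unthinned, 0.81% and 0.77%), against 0% and 0.26% of erythroid cells and 0.49% and 0.69% of Schwann and satellite glia. Dct, Tyr and Mlana helped to choose the cells, so their shares are a description only. After thinning, Dct was seen in 96.1% and 95.5% of intermediate cells, Tyr in 48.3% and 46.1% and Mlana in 64.4% and 55.0%, with unthinned shares of 99.6% and 99.7%, 63.5% and 57.9%, and 79.0% and 70.1%. The same genes were held by 6.39% and 10.6%, 0% and 0.53%, and 0.46% and 1.19% of thinned erythroid cells, where 0 of 219 cells allows a share of up to 1.37%.

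Intermediate cell genes named for the stria outside the rule included Kcnj10, Ptgds and Nrp2. Ptgds, the prostaglandin D synthase gene, had 39672 and 35660 CPM in intermediate cells, but other kept cells also held 14286 and 21880 CPM. Nrp2, a semaphorin and VEGF coreceptor gene, was at 713 and 650 CPM, about 9.07-fold and 9.10-fold over the others. Bace2 was at 230 and 197 CPM.

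Potassium handling divided by gene between intermediate and marginal cells. For this comparison, 125 and 196 cells outside the intermediate group that held at least 3 marginal and dark cell markers (a list with Kcnq1, Kcne1 and Hmx2 among 10 genes) served as marginal cells. Kcnj10 was at 1427 CPM (noise only) and 1429 CPM (AAV-Isl1) in intermediate cells with 6 or more markers, at 429 and 535 CPM in those with 3 to 5, and at 127 and 114 CPM in marginal cells. Schwann and satellite glia had 77.6 and 85.8 CPM of Kcnj10, and fibrocytes 23.6 and 45.3 CPM. Kcnj13, a low-conductance inward rectifier gene, was part of the rule, so its 731 and 626 CPM in cells with 6 or more markers and 8.1 and 5.9 CPM in marginal cells are a description only. Kcnn4 showed 212 and 166 CPM against 5.4 and 5.9 CPM.

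The sodium pump was split by its beta subunits. Atp1b1 stood at 5194 and 5189 CPM in intermediate cells with 6 or more markers and at 335 and 462 CPM in marginal cells. Atp1b2 had the opposite pattern, with 170 and 99.1 CPM in those intermediate cells and 2793 and 2582 CPM in marginal cells. Atp1b3 followed Atp1b1, with 1369 and 1302 CPM against 194 and 210 CPM. Fxyd1, a pump regulator, went with the intermediate cells at 888 and 852 CPM against 122 and 100 CPM, and Fxyd2 with the marginal cells at 367 and 445 CPM against 34.7 and 36.7.

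The sodium-potassium-chloride cotransporter gene Slc12a2 was at 1743 and 1586 CPM in intermediate cells with 6 or more markers, below the 5472 and 5096 CPM of marginal cells and above the 341 and 370 CPM of Schwann and satellite glia. Kcnq1 and Kcne1, marginal cell markers of the list, were at 16.1 and 9.6 CPM and at 93.3 and 53.4 CPM in those intermediate cells. Gjb6 and Gjb2, genes of the connexins that couple intermediate cells to basal cells and fibrocytes, stood at 742 and 684 CPM and at 443 and 440 CPM, while marginal cells had 24.3 and 31.5 CPM and 13.5 and 66.9 CPM. Fibrocytes lay between them at 235 and 298 CPM for Gjb6 and at 300 and 400 CPM for Gjb2. Both libraries gave the same order of these 5 sets of cells for Kcnj10, Atp1b1 and Atp1b2. For Slc12a2 the intermediate cells with 3 to 5 markers (2098 and 1322 CPM) lay above those with 6 or more in the noise-only library and below them in the AAV-Isl1 library.

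**Figure D3:**
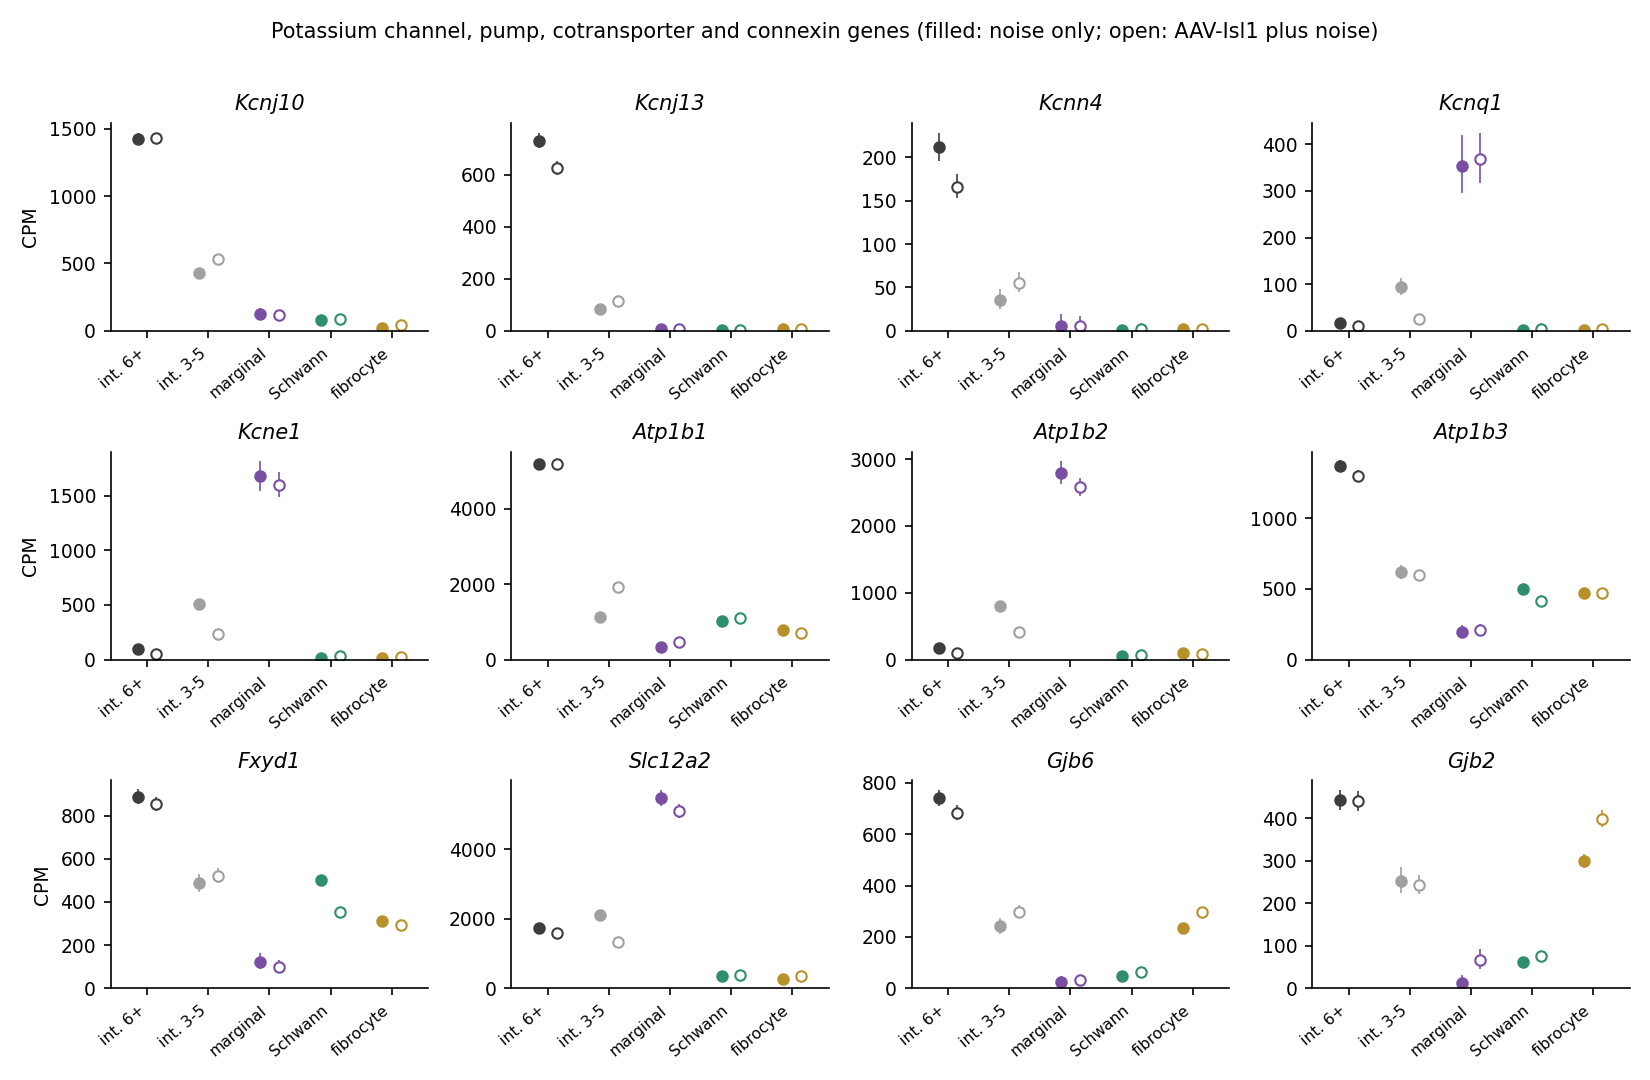
CPM of 12 genes of potassium handling in 5 sets of cells (int. 6+ and int. 3-5 are intermediate cells by marker number), with exact Poisson intervals as bars, filled for noise only and open for AAV-Isl1. Atp1b1 is at 5194 and 5189 CPM in intermediate cells with 6 or more markers and Atp1b2 at 2793 and 2582 CPM in marginal cells.

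Treated over noise-only ratios were taken on the summed intermediate cells. Isl1, the delivered gene, gave 78 UMIs (18.4 CPM) in the noise-only and 215 UMIs (42.8 CPM) in the AAV-Isl1 intermediate cells, a ratio of 2.33 (1.79 to 3.06). The other kept cells had more of it, with 89.2 and 125 CPM. After thinning, 0.77% and 1.90% of intermediate cells held an Isl1 UMI (unthinned, 1.90% and 3.56%), against 1.37% and 4.37% of erythroid cells. These shares were at or below background and are not read as expression in intermediate cells. The 5 cells with most Isl1 held 35 of the 78 and 71 of the 215 UMIs. Among cells with 6 or more markers the ratio was 1.67 (1.16 to 2.41), with 50 and 85 UMIs, and among those with 3 to 5 markers it was 2.80 (1.85 to 4.38). The ratio was 4.92 (1.92 to 16.1) in the 1213 and 1725 cells that met the rule after thinning. The thinned shares above rest on a larger set, 1426 and 1997 intermediate cells chosen before thinning. Without cells holding markers of other types the ratio was 19.1 (4.94 to 164). Its wide interval shows that it rests on few UMIs, whose counts are not reported here. Isl1 is also a gene of spiral ganglion neurons. Neuron markers summed to 890 and 1461 CPM in the intermediate cells with all 8 genes seen, and their part in the Isl1 ratio was not tested. Whether vector RNA is counted under the Isl1 gene is not given in the sources used here.

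Of 10711 genes with at least 50 UMIs in intermediate cells, 695 (6.49%) were at least 1.5-fold higher in the AAV-Isl1 library and 169 (1.58%) at least 1.5-fold lower. Among cells with 6 or more markers 317 genes were higher and 161 lower past that fold. Those cells hold fewer summed UMIs, and the number of genes with at least 50 UMIs there is not reported here. The 317 and 161 are thus not shares of the 10711. The lists use a minimum of 20 UMIs. At that minimum, 10.5% of 12756 genes were past 1.5-fold upward and 2.82% downward, with a median log2 ratio of 0.04. Of those genes 56.8% were higher at all and 43.2% lower (55.3% and 44.7% with at least 50 UMIs). In the other kept cells, 7835 of 17098 genes were higher and 9263 lower, at a median of -0.02.

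All 9 rule markers were lower in the AAV-Isl1 intermediate cells, with a median log2 ratio of -0.23 and none past 1.5-fold, while in the other kept cells 8 of 9 were higher at a median of 0.34. Mlana had the lowest ratio, 0.75 (0.72 to 0.78), followed by Kcnj13 at 0.78 (0.74 to 0.83), and Dct had the highest at 0.915 (0.906 to 0.924). In cells with 6 or more markers, Mlana was at 1559 and 1293 CPM with a ratio of 0.83 (0.80 to 0.86), and Dct at 21470 and 20700 CPM with a ratio of 0.96 (0.95 to 0.97). Tyr and Met came to 0.97 (0.92 to 1.02) and 0.99 (0.93 to 1.04) there, intervals that include 1. In cells with 3 to 5 markers the direction was the other way for 8 of the 9 markers, with a median of 0.41, Dct at 1.46 (1.42 to 1.51) and Gpnmb at 1.36 (1.25 to 1.48), while Mlana was at 0.75 (0.67 to 0.84). The members' own rule rests on these genes, and the AAV-Isl1 cells held fewer UMIs each, so nothing is read from their count.

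Pigment and lineage genes outside the rule were split. Of 25 pigment enzyme and melanosome genes 22 had at least 20 UMIs, and 8 were higher and 14 lower with a median of -0.15. Cd63, a melanosome and endosome tetraspanin gene, had 2209 and 1850 CPM with a ratio of 0.84 (0.81 to 0.86). Myo5a, the motor that carries melanosomes, had 234 and 188 CPM at 0.80 (0.73 to 0.88), and Gpr143 a ratio of 0.69 (0.58 to 0.82). Only Slc7a11, the cystine transporter gene, was past 1.5-fold, with 59 and 130 UMIs and a ratio of 1.86 (1.36 to 2.58). It was below its level in the other kept cells (38.4 and 56.7 CPM) in both libraries and is named for being the single gene past the fold. Of the lineage regulators 9 of 16 measured were higher, with a median of 0.01 and ratios of 0.87 (0.80 to 0.95) for Mitf, 0.88 (0.81 to 0.97) for Sox10 and 0.91 (0.86 to 0.96) for Ednrb. Ngfr, a neurotrophin receptor gene of glia, was the single one past the fold, with 27 and 64 UMIs.

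Of the 12 stria intermediate cell genes 10 were lower and 2 higher, with a median of -0.13. Gsta4 had 8685 and 6678 CPM at a ratio of 0.77 (0.76 to 0.78), and 0.84 (0.82 to 0.85) in cells with 6 or more markers. Fmn1, a formin gene, had 155 and 107 CPM, a ratio of 0.69 (0.62 to 0.78). Kcnj10 was at 0.95 (0.91 to 0.98) over all intermediate cells and at 1.00 (0.96 to 1.04) in those with 6 or more markers. Igf1, a growth factor gene, was the single one past the fold, with 179 and 110 CPM and a ratio of 0.61 (0.55 to 0.69). It was at 17.1 and 14.2 CPM in intermediate cells with no marginal cell marker and at 1296 and 1342 CPM in those with 3 or more. Without cells holding a marginal marker its ratio was 0.83, so its place on this list is not borne out here.

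Among 26 measured potassium channel and pump genes, 14 were higher and 12 lower at a median of 0.06, which was below 0 in 4 of 13 other settings. Atp1b1 had 4162 and 4032 CPM at 0.97 (0.95 to 0.99) and Slc12a2 1833 and 1493 CPM at 0.81 (0.79 to 0.84). In cells with 6 or more markers these ratios were 1.00 (0.98 to 1.02) and 0.91 (0.88 to 0.95), and in cells with 3 to 5 markers 1.72 (1.61 to 1.84) and 0.63 (0.59 to 0.67). Kcnq1, Kcne1 and Atp1b2 were past 1.5-fold downward. Fxyd5, a pump regulator gene, was past it upward with 44.0 and 74.7 CPM at 1.70 (1.42 to 2.03), below the 140 and 159 CPM of other cells. Of 11 gap junction genes measured, 7 were higher and 4 lower, with Gjb6 at 0.89 (0.84 to 0.94) and Gjb2 at 0.94 (0.88 to 1.00). Panx2, a pannexin gene with 35 and 79 UMIs, was the 1 gene of that list past the fold.

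The 3 lower potassium genes were among the 12 lowest named genes, and Kcnq1 and Kcne1 are also on the marginal cell marker list. Dnase1, a secreted nuclease gene, had 4428 UMIs (1042 CPM) in the noise-only and 2643 UMIs (526 CPM) in the AAV-Isl1 intermediate cells, a ratio of 0.50 (0.48 to 0.53). Lrp2, the endocytic receptor megalin, had 362 and 216 CPM, and Enpep, an aminopeptidase that processes angiotensin, 106 and 57.9 CPM. Kcnq1 had 35.8 and 15.5 CPM at 0.43 (0.33 to 0.57) and Kcne1 198 and 119 CPM at 0.60 (0.54 to 0.67). Atp1b2 had 329 and 211 CPM at 0.64 (0.59 to 0.70), and Tspan1, Slc41a3 and Pcsk6 had ratios of 0.48, 0.52 and 0.53. Wfdc18 rested on 1 cell in each library, with 441 of 497 and 119 of 144 UMIs. AY036118 had 419 and 225 CPM and was lower in the other kept cells too, at 464 and 239 CPM.

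The marginal cell marker list, which holds Kcnq1 and Kcne1, had 7 of 8 measured genes lower. Of its 10 genes 9 were seen in the intermediate cells of each library, and their summed level was 323 and 188 CPM. Kcne1 alone gave 198 and 119 CPM of those sums, so the sums are not separate from its ratio. Intermediate cells with at least 3 genes of the list numbered 92 (5.31%) and 71 (2.72%). In intermediate cells with no UMI of that list, 1549 and 2389 cells, Dnase1 was at 22.5 and 20.1 CPM, Lrp2 at 9.55 and 7.53, Enpep at 3.65 and 2.51, Igf1 at 17.1 and 14.2 and Atp1b2 at 39.9 and 34.9 CPM. In cells with 3 or more of the markers, Dnase1 was at 8858 and 7129 CPM and Atp1b2 at 2518 and 2488 CPM. Without any cell that held a marginal marker, the ratio of Dnase1 was 0.89 and that of Atp1b2 0.88. Other ratios had point values below 1 there, with Igf1 at 0.83, Lrp2 at 0.79, Slc41a3 at 0.70, Enpep at 0.69 and Pcsk6 at 0.64. AY036118 was at 0.52 and Wfdc18 at 0.31, while Tspan1 was at 1.63. Lrp2 and Enpep had only the low levels given above in those cells. UMI counts and intervals of the ratios without marginal marker cells are not reported here, so their directions are not read as results. Without the cells holding 3 or more markers of any other type, the ratio of Atp1b2 was 1.38 (1.12 to 1.70). Those of Dnase1 at 1.10 (0.96 to 1.25), Lrp2 at 1.11 (0.90 to 1.36), Enpep at 1.39 (0.93 to 2.08) and Kcne1 at 1.20 (0.93 to 1.56) had intervals that include 1, as did Kcnq1 at 0.86 (0.36 to 2.01). Kcnq1 and Kcne1 are on a list that helped choose the cells left out. The part of marginal cell RNA in these ratios was not tested.

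**Figure D4:**
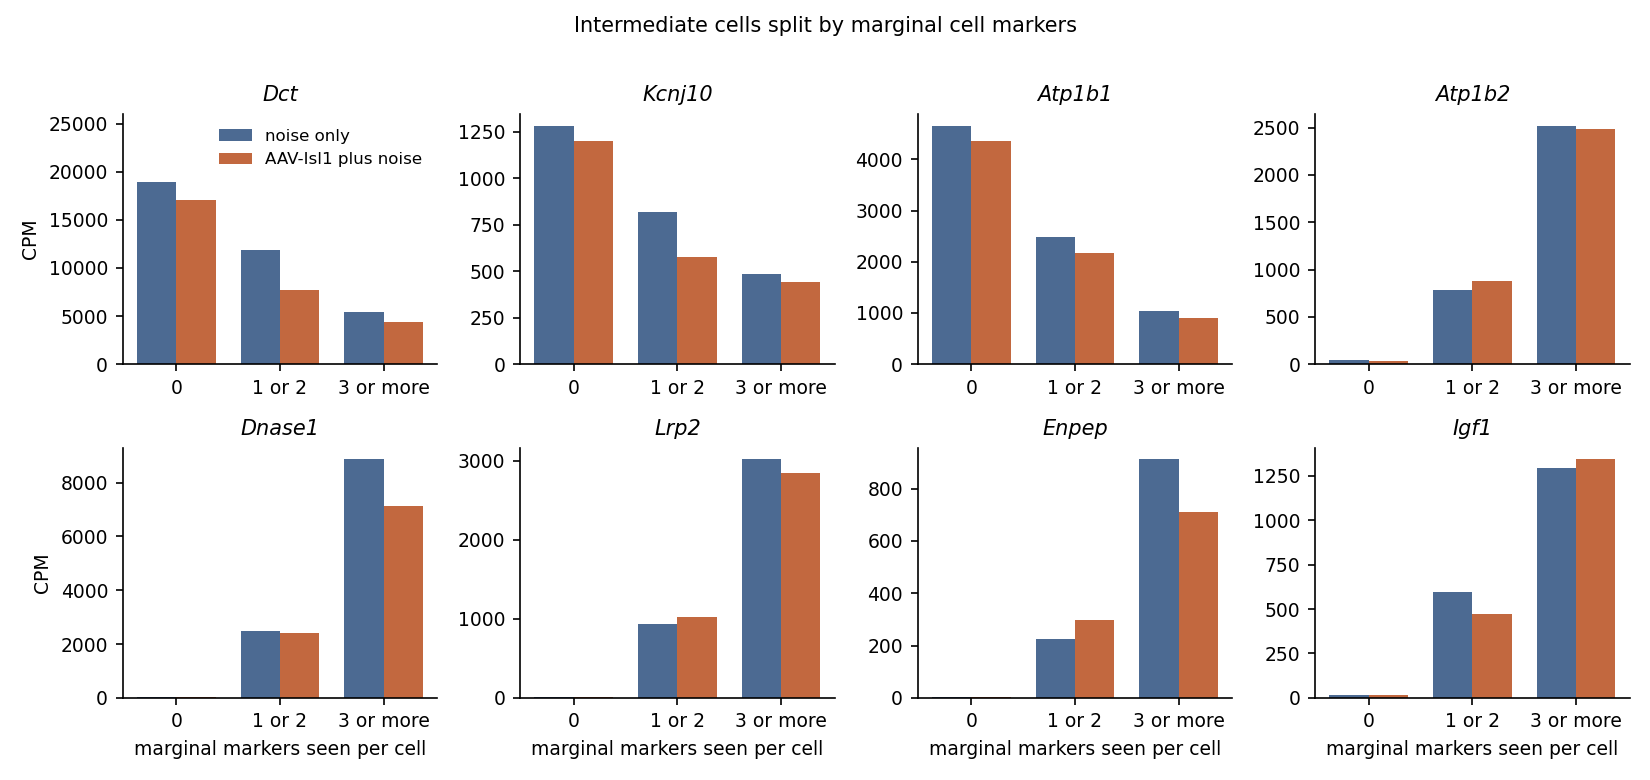
CPM in intermediate cells split by the number of marginal and dark cell markers that each cell held (none, 1 or 2, 3 or more), for both libraries. Dnase1 is at 22.5 and 20.1 CPM in cells with none and at 8858 and 7129 CPM in cells with 3 or more, while Dct runs from 18967 and 17064 CPM down to 5416 and 4411 CPM.

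Neutrophil genes led the 12 highest. S100a9, a calcium-binding protein gene of neutrophils, had 21 UMIs in the noise-only and 8927 UMIs in the AAV-Isl1 intermediate cells, 4.94 and 1777 CPM, a ratio of 360 (235 to 581). Camp, the cathelicidin gene, had 6 and 1797 UMIs. Retnlg, a neutrophil granule gene, had 0 and 868 UMIs, which makes it at least 245-fold higher when 3 counts are set for the 0. In the other kept cells S100a9 was at 316 and 3513 CPM. Of the 8 neutrophil markers, 6 and 8 were seen in intermediate cells, with a summed 11.3 and 4077 CPM, and Mmp8 and Retnlg were at 0 in the noise-only library. Intermediate cells with at least 3 of them numbered 0 and 48, and without the cells carrying 3 or more markers of any other type the ratios were 11.5 for S100a9 and 1.81 for Camp. Both genes are on the neutrophil list that helped choose the cells left out, so lower ratios follow in part from that choice. The part of neutrophil RNA in these values was not tested.

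The other 9 of the highest genes had varied roles. Bpifa1, a secreted airway protein gene, had 849 UMIs in the AAV-Isl1 intermediate cells, of which 683 lay in 1 cell. Ccl8, a chemokine gene, had 11 and 123 UMIs, with 100 of the 123 in 5 cells. Prg4 (lubricin) had 20 and 156 UMIs, with 19 and 98 of them in 5 cells. Lypd2 had 21 and 103, with 13 and 49 in 5 cells. For Mgp, 5 cells held 191 of 605 and 400 of 1491 UMIs. Mgp, the matrix Gla protein gene of cartilage and vessels, had 142 and 297 CPM, a ratio of 2.08 (1.90 to 2.30), below its 538 and 548 CPM in other cells. Gldn, which encodes the node protein gliomedin of Schwann cells, had 47.1 and 88.8 CPM at 1.89 (1.59 to 2.24). Bc1, a neuronal noncoding RNA, had 66.1 and 159 CPM at 2.41 (2.10 to 2.77), with 142 and 237 CPM in the other cells. Stk17b and Gprasp2 had ratios of 2.97 and 2.13. Each of Bc1, Mgp and Gldn stayed above 1.5-fold in cells with 6 or more markers, at 2.33, 1.65 and 1.80. The neutrophil gene S100a9 did so too, at 295, so this does not mark a gene as one of intermediate cells. All 12 of the highest genes lay below their level in the other kept cells in both libraries, where Gldn was at 174 and 164 CPM.

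Marker lists of blood cells, neurons and fibrocytes also differed between the libraries in intermediate cells. Erythroid markers summed to 5456 and 15645 CPM (6 and 7 of 7 genes seen), against 7942 and 20361 CPM in the other cells. Macrophage markers summed to 265 and 414 CPM, and lymphocyte markers to 13.2 and 43.6 CPM. Every measured gene was higher in the lists of neutrophils (8), erythroid cells (7), lymphocytes (5), macrophages (10), neurons (8) and hair cells (3). Fibrocyte markers summed to 796 and 1124 CPM. How much of any ratio these levels account for was not tested.

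Stress and immune lists gave small medians apart from MHC class II. Of 18 heat shock genes 16 were higher and 2 lower at a median of 0.08. Hsp90aa1 had 524 and 682 CPM at 1.30 (1.23 to 1.37), and Cryab, a small heat shock protein gene, 1517 and 1233 CPM at 0.81 (0.79 to 0.84). Of 25 immediate early genes 15 were higher and 10 lower at a median of 0.01. In the other kept cells 24 of 25 were lower at a median of -0.38. Over all genes in those cells, 9263 of 17098 were lower at a median of -0.02. Fos was at 1459 and 1425 CPM in intermediate cells against 4343 and 3155 CPM in the others. With 1 library per group that difference between cell sets was not tested.

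Interferon response genes had a median of -0.06 with 14 higher and 19 lower of 33. Ifi27l2a, an interferon-inducible gene, had 6255 and 4649 CPM at 0.74 (0.73 to 0.76), while in the other cells, at lower levels of 922 and 1115 CPM, the AAV-Isl1 value was the higher one. B2m, whose product pairs with the class I heavy chains, had 808 and 781 CPM at 0.97 (0.92 to 1.01), while H2-D1 and H2-K1 had ratios of 1.23 (1.15 to 1.32) and 1.20 (1.09 to 1.31). In the other cells those 3 genes had ratios of 1.51, 1.56 and 1.81. Of 18 measured MHC class I and antigen processing genes, 13 were higher and 5 lower at a median of 0.10. All 7 measured MHC class II genes were higher, and Cd74, H2-Aa, H2-Ab1, H2-Eb1 and H2-DMa were past 1.5-fold. Cd74, the invariant chain, had 116 and 518 UMIs and H2-Aa 28 and 219, levels below those of the other cells (Cd74 at 96.1 and 338 CPM). The list's median was 1.92, and 1.98 in the other cells. Macrophage and lymphocyte markers summed to 265 and 414 CPM and to 13.2 and 43.6 CPM in the intermediate cells, 32 and 96 of which held at least 3 macrophage markers. Their part in the class II ratios was not tested.

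Other lists differed in how evenly they were split. Of 32 antioxidant and glutathione genes 14 were higher and 18 lower at a median of -0.04, with Gpx1 past the fold upward (109 and 175 CPM) and Gpx3 downward (216 and 136 CPM). Mt3, a metallothionein gene of brain and ear, had 867 and 1054 CPM at 1.22 (1.17 to 1.27). Lysosomal genes, which melanosomes share in origin, were lower in 14 of 22 with a median of -0.07, and Ctsb, the cathepsin B gene, had 2185 and 1975 CPM at 0.90 (0.88 to 0.93). Glucocorticoid response genes were higher in 11 of 13 at a median of 0.14, with Klf9 at 1.04 (0.94 to 1.14) and Tsc22d3 at 1.39 (1.12 to 1.73). Of 17 measured cell cycle genes 12 were higher, 6 past the fold, at a median of 0.39, which was -0.014 in cells with 6 or more markers. Among them was Hmgb2, a chromatin protein gene, at 40.9 and 68.1 CPM, below the 92.7 and 178 CPM of the other cells. Secreted and growth genes included Igfbp5, an IGF binding protein gene, with 208 and 325 CPM at 1.56 (1.44 to 1.70), also below the other cells (793 and 733 CPM). Of 20 measured acid-base, calcium and copper transport genes 12 were higher at a median of 0.07, and Atp2b2, a calcium pump gene with 108 and 230 UMIs, was the 1 gene past the fold. Of 10 measured LIM homeodomain genes and partners 6 were higher at a median of 0.08, and Isl1 and Lmo1 (56 and 125 UMIs) were past the fold. Survival genes and p53 targets had medians of 0.01 and 0.06, with Mcl1 at 0.91 (0.80 to 1.02) and Cdkn1a at 0.98 (0.89 to 1.08).

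**Figure D5:**
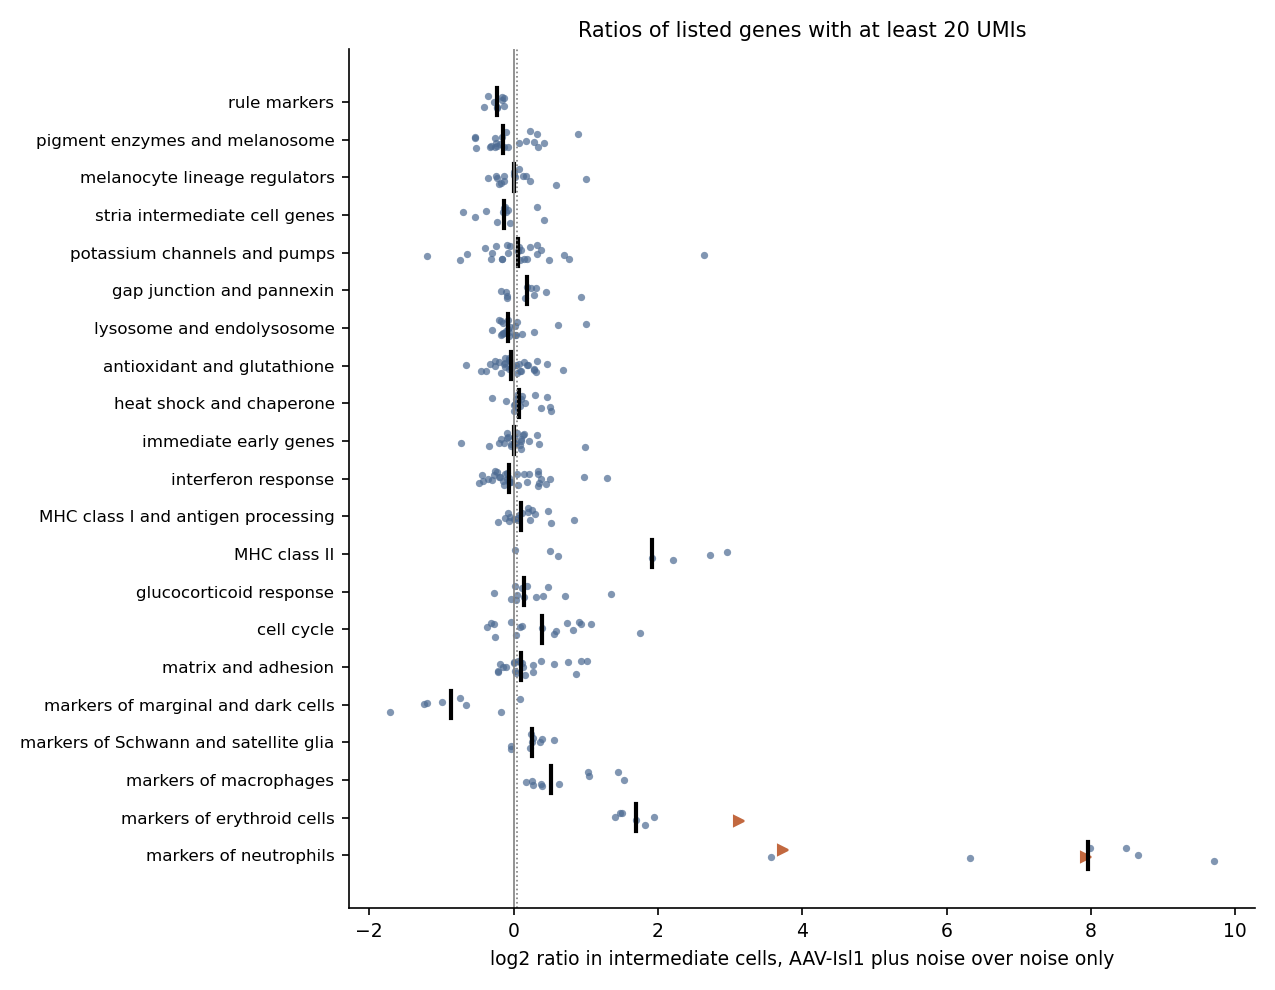
Log2 ratios of AAV-Isl1 over noise only in intermediate cells for genes of 21 lists with at least 20 UMIs (points), with each list's median as a black bar and triangles at the lower bound for genes at 0 in the noise-only library. The dotted line is the median of all genes (0.04). Rule markers lie at a median of -0.23 and marginal cell markers at -0.87, while neutrophil markers reach a median of 7.96 with Mmp8 and Retnlg set at their bounds.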

How the data were processed

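Single-cell RNA-seq of 2 libraries (10x 3′ v3.1 chemistry, per the labels) was analysed from the raw UMI counts per gene and barcode that the authors deposited as whole-number matrices of 32285 genes. Cell Ranger 5.0, STAR and Seurat 3.2.2 on mm10 (GRCm38) are named in the submitters' processing notes, and the matrix headers, per the file headers, name Cell Ranger 5.0.1. The labels give about 1600 cells loaded for a target of 1000, while the files list 21068 and 24209 barcodes, of which 19953 and 22672 passed the filters. UMIs of intermediate cells (4249631 and 5023709) were summed per library into CPM. Ratios have exact conditional binomial intervals, shares Clopper-Pearson intervals and CPM Poisson intervals, at 95%, and a count of 0 allows 3 counts. Doublets were called with Scrublet (scanpy 1.11.5, expected rate 0.06) and left in for the values reported. Its automatic thresholds called none, so the score that 6% of noise-only barcodes exceed was used, which called 5.99% and 4.13%. The members and gene lists were chosen with earlier results of these data known.

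Named genes were the rule markers and Isl1, the 2 to 6 genes of a list with most UMIs, the 20 with the highest fold over other cells (at least 200 UMIs), and the 12 highest and lowest ratios. The latter needed at least 100 UMIs, 20 CPM in 1 library, an interval without 1 and, where higher, 0.5 times the CPM of other cells. Mitochondrial, ribosomal, hemoglobin, immune receptor and unnamed model genes were left out. Genes singled out as past a fold, Fmn1, Fxyd2, the near-absent Kit, Mc1r, Tyrp1, Oca2 and Pmel, and the splits by marker number were chosen after values were seen. The interval and fold calculations were tested on simulated counts. Some genes of the lists enter the counts and medians and are not reported here by name. Promoter windows are from RefSeq on GRCm38.p6. Python 3.11.15, numpy 2.4.6, scipy 1.17.1, pandas 2.3.3 and matplotlib 3.10.9 were used.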

Additional observations from a re-analysis of the deposited data

Results flagged for a closer look

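Matrix and adhesion genes had a median log2 ratio of AAV-Isl1 over noise only of 0.11 in intermediate cells, with 17 of 22 measured genes higher, and of -0.18 in the other kept cells, with 19 of 24 lower. The directions were opposite, and the difference was not tested, since each group is 1 library. Spp1, the osteopontin gene and the one of this list with most UMIs, ran against both medians, with 2636 and 2262 CPM in intermediate cells and 2400 and 2824 CPM in the others. Timp3, a metalloproteinase inhibitor gene, had 421 and 458 CPM in intermediate cells and 600 and 504 CPM in the others.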

How the results depend on the processing

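No paired analysis was possible because each group is 1 pooled library. Of the shares, counts and list medians under other settings, 288 stayed within the interval of the reported value or, for counts, within 1.5 times, and those beyond it are given here. Without cells holding markers of other types (1001 and 1366 left), the share ratio was 1.20, the count of higher genes 309, the rule marker median -0.12 and the cell cycle median -0.13. With at least 6 markers, these were 1.24, 317 and -0.12, and medians were 0.21 for immediate early genes and 3.31 for MHC class II. With at least 4 and 2 markers the immediate early median was 0.11 and -0.089. Thinned to 1000 UMIs, the share ratio was 1.22, the higher count 291, and medians were -0.027 for stria intermediate cell genes and -0.0024 for the glucocorticoid response. Of 21 list medians, 13 had the other sign in at least 1 of 13 settings, most of them near 0 as reported. Cell cycle (0.39) was also at -0.014 with at least 6 markers, -0.012 thinned and -0.031 at 100 UMIs. Gap junction genes (0.19) were at -0.084 with at least 2 markers and -0.091 at 100 UMIs, and potassium genes (0.06) between -0.044 and -0.021 in 4 settings. Immediate early genes (0.01) were also at -0.025 without mixed cells and -0.035 under trimmed mean scaling. Acid-base transport and survival genes turned in 5 settings each, lineage regulators in 10, interferon response and secreted signals in 3 each, and antioxidant, LIM and p53 lists in 1 each. Minimums of 10 and 200 UMIs gave 1851 and 168 higher and 591 and 27 lower genes. Gene counts under other cell sets or minimums rest on other numbers of measured genes and are not shares of the 10711. Trimmed mean scaling gave 591 higher and 229 lower and shifted each log2 ratio by -0.05.

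Of the single-gene ratios 570 stayed, 162 moved and 18 changed direction. Without mixed cells these were Dnase1 (1.10), Enpep (1.39), Lrp2 (1.11), Kcne1 (1.20), Pcsk6 (1.05), Atp1b2 (1.38), Kcnj10 (1.04), Atp1b1 (1.04), Slc12a2 (1.04), Ptgds (1.02) and Cadm1 (0.92). Thinned, they were Kcne1 (1.12), Pcsk6 (1.05) and Ptgds (1.03). Without marginal marker cells, Tspan1 was at 1.63 and Fxyd2 at 0.83, with UMI counts and intervals not reported here. Others were Kcnj10 with at least 6 markers (1.00) and Fxyd6 with at least 2 (0.999). Isl1 ranged from 1.62 to 19.1, the latter on few UMIs with an interval of 4.94 to 164. The causes were not tested. Depth limits genes under 20 UMIs.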
